A study of Arabidopsis thaliana with 35 samples.

Results

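Chloroplast-encoded genes are the genes carried by the plastid's own circular genome, here every gene of the count table whose identifier starts with ATCG. The table held 133 such identifiers, and the 100 with 10 or more counts summed over all libraries are described as members, out of 32833 genes in all. Of the 33 identifiers left out, 12 had no count and 21 had 1 to 9 counts, 81 counts in total. The rule for members uses the identifier and the total count, not how a gene changed.

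The seedlings were *Arabidopsis thaliana*, 7 d old, of 3 kinds: WT, *er 35S:XVE>>ER* (an *erecta* mutant that carries an estradiol-inducible copy of the receptor kinase gene *ER*) and XVE:EPFL4 (an estradiol-inducible copy of the peptide ligand gene *EPFL4*, in WT). Each kind was sampled uninduced, on mock plates (time 0 in the labels), and after 3 h and 8 h on plates with 5 mM 17-β estradiol as the labels give it. The 9 conditions had 4 libraries each, but 3 h *er 35S:XVE>>ER* seedlings were represented by 3 (replicates 1, 2 and 4), giving 35 in all. In the *er* line the inducible construct is driven by the 35S promoter, which is active in most cell types; the promoter of the XVE:EPFL4 line and the *er* allele are not given in the sources used here. Several seedlings were pooled for a sample, per the paper's methods. The paper's methods describe a transfer to induction or mock plates for 3 h, whereas the labels put uninduced seedlings at time 0. Their time on the new plate is therefore unclear. In the comparisons of 8 h with uninduced seedlings, estradiol, time on the new plate and time of day cannot be told apart. At 3 h they can be told apart only if the mock seedlings were also held for 3 h. WT, which carries no inducible transgene, received estradiol as well.

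Chloroplast genes encode core subunits of the photosystems, the cytochrome b6f complex, the ATP synthase and the NADH dehydrogenase-like complex, the large subunit of Rubisco, part of the plastid ribosome, and ribosomal and transfer RNAs. They are transcribed by a bacterial-type RNA polymerase, whose core is encoded in the plastid and whose sigma factors and associated proteins are encoded in the nucleus, and by phage-type polymerases imported from the cytosol. Chloroplast mRNAs carry no stable poly(A) tail; in plastids a tail added to an RNA is known as a mark for decay. The labels name an mRNA sequencing kit, so the counts report the chloroplast RNA that such a kit retained and not the chloroplast RNA pool.

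The identifiers could mostly not be given a gene name from the reference, because its plastid genes carry other locus tags and 0 of the 100 members matched one. For the 6 named here, a note in the nuclear annotation cites the identifier. It does so as the closest match of a nuclear gene, except for *ndhJ*, where it names a nuclear pseudogene of the identifier. That nuclear sequence in turn had its best BLAST hit in a named plastid gene. They are *cemA* (ATCG00530, an envelope membrane protein), *clpP* (ATCG00670, the proteolytic subunit of the stromal Clp protease), *ndhJ* (ATCG00420) and *ndhK* (ATCG00430, both subunits of the NADH dehydrogenase-like complex of cyclic electron flow), and the ribosomal protein genes *rpl20* (ATCG00660) and *rpl2* (ATCG01310). All other members are given by identifier alone, and since their lengths are then unknown, levels are not compared per length.

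In an RNA without a tail, oligo(dT) can pair only with runs of A. The longest run of A in the coding sequence is therefore shown in capitals for the 5 named genes that were tested, on the coding strand, with up to 20 bases on either side in lower case (RefSeq, build TAIR10.1, plastid sequence Pltd).
*cemA*, Pltd:60741-60771, plus strand: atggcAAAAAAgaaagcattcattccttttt
*clpP*, Pltd:70823-70866, minus strand: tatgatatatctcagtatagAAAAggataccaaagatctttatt
*ndhJ*, Pltd:48873-48916, minus strand: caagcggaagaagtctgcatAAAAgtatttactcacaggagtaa
*ndhK*, Pltd:49871-49916, minus strand: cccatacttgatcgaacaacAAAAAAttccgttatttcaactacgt
*rpl20*, Pltd:68512-68541, minus strand: tatacaatttcgaatgacatAAAAAAAtaa
The runs were 4 to 7 bases long, and their part in the counts was not tested. The gene *clpP* spans 3 coding exons at Pltd:69910-71882, and the other 4 are single-exon genes. The gene *rpl2* has 2 identical copies in the inverted repeat, had 22 counts in total and was not tested.

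The members took a very small part of the libraries, and that part was smaller after 3 h and 8 h on estradiol than before in WT, and smaller at 8 h in both inducible lines. Libraries held 18224765 to 25089853 counts, of which 4155 to 12644 fell on members, 0.0284% of all counts. A library's 95% Wilson interval was narrow, 0.0352% to 0.0369% around the 0.0361% of WT uninduced replicate 1, and covers counting error only. No p-value is given for the share, since it is a sum over the members.

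In uninduced WT, the members made up 0.0361%, 0.0562%, 0.0399% and 0.0355% of counts in replicates 1 to 4. After 3 h the shares of WT were 0.0237%, 0.0224%, 0.0322% and 0.0255%, and after 8 h 0.0237%, 0.0261%, 0.0257% and 0.0263%. All 8 induced WT libraries thus lay below all 4 uninduced ones. The mean was 0.0419% ± 0.0097 uninduced (SD, n = 4), 0.0259% ± 0.0044 (n = 4) at 3 h and 0.0255% ± 0.0012 (n = 4) at 8 h, ratios to uninduced of 0.619 and 0.607. Uninduced replicate 2 held the highest share of the series, and without it the uninduced mean was 0.0371% ± 0.0024 (SD, n = 3).

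In *er 35S:XVE>>ER* the uninduced shares were 0.0392%, 0.0349%, 0.0407% and 0.0259%. At 3 h they were 0.0278%, 0.0249% and 0.0237%, and at 8 h 0.0269%, 0.0215%, 0.0232% and 0.0203%. Uninduced replicate 4 stood within the range of the induced libraries, so that the groups overlapped, while the other 3 uninduced libraries lay above every induced one. Means were 0.0352% ± 0.0066 uninduced (n = 4), 0.0255% ± 0.0021 at 3 h (n = 3) and 0.0230% ± 0.0029 at 8 h (n = 4). Without replicate 4 the uninduced mean was 0.0383%.

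XVE:EPFL4 had a lower mean share than WT when uninduced, and its lowest shares came at 8 h. Its uninduced libraries held 0.0278%, 0.0264%, 0.0289% and 0.0370%, those at 3 h 0.0243%, 0.0277%, 0.0282% and 0.0299%, and those at 8 h 0.0238%, 0.0210%, 0.0199% and 0.0222%. The 3 h libraries overlapped the uninduced ones, and the 8 h libraries lay below every library of both earlier conditions. Mean shares were 0.0300% ± 0.0048, 0.0275% ± 0.0023 and 0.0217% ± 0.0017 (SD, n = 4 each). Uninduced XVE:EPFL4 was at 0.716 times uninduced WT, with 3 of 4 libraries below all of WT.

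**Figure D1:**
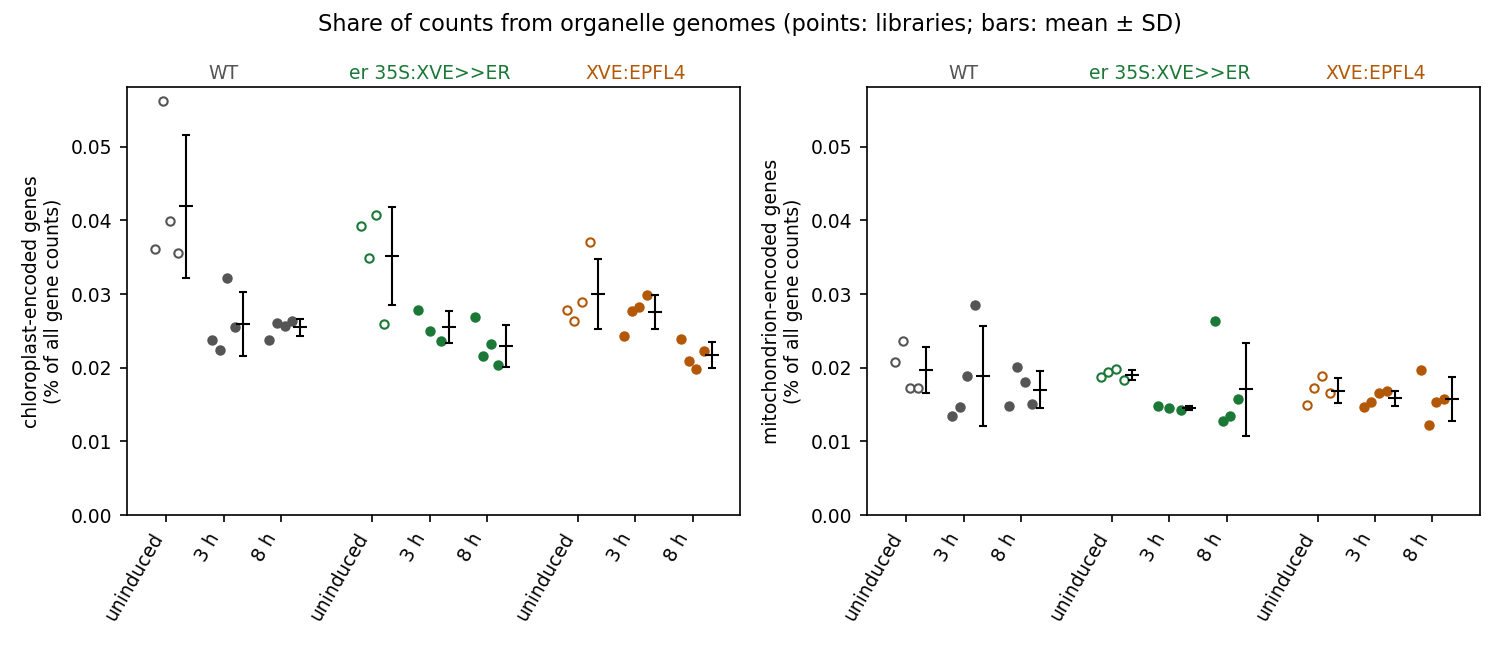
Share of all gene counts (percent, linear axis from 0) from the 100 chloroplast-encoded members (left) and from 73 mitochondrion-encoded genes (right) in each library, by kind of seedling and time; points are libraries, open when uninduced, and bars give the mean ± SD. The mean chloroplast share in WT is 0.0419% uninduced and 0.0255% at 8 h, and the mitochondrial ranges overlap between uninduced and 8 h seedlings of each kind.

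The mitochondrial genome was measured the same way. Its 73 genes with 10 or more counts took 0.0123% to 0.0285% of counts, and in WT the mean was 0.0197% ± 0.0031 uninduced, 0.0189% ± 0.0068 at 3 h and 0.0170% ± 0.0025 at 8 h (SD, n = 4), with overlapping ranges. Of its 31 genes that were tested, 1 fell in WT at 3 h and 2 at 8 h, with median log2 fold changes of -0.44 and -0.43. In *er 35S:XVE>>ER*, 2 fell at 3 h (median -0.49), and 1 fell and 1 rose at 8 h (median -0.19). In XVE:EPFL4, 0 fell at 3 h and 1 at 8 h (medians 0.07 and 0.16). Of all tested genes, 8.92%, 6.16% and 6.65% fell at 3 h in the 3 kinds, and 16.2%, 15.1% and 17.6% at 8 h. By share, all 3 libraries of *er 35S:XVE>>ER* at 3 h lay below all uninduced ones, at 0.761 times the uninduced mean. Whether the chloroplast and mitochondrial genes differ in their change was not tested.

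The counts within the chloroplast set were held by few genes. The first 2 members by level, ATCG00020 and ATCG00490, took 22.1% ± 3.1 of all member counts in a library (mean and SD over 35 libraries), the first 4, with ATCG00480 and ATCG00190, took 36.2% ± 2.3, and the first 15 took 67.0% ± 3.0. ATCG00020 was the highest member in 33 of 35 libraries, with a mean of 38.2 CPM (TMM-normalized counts relative to library size), followed by ATCG00490 at 26.9, ATCG00480 at 21.9, ATCG00190 at 17.6 and ATCG00280 at 13.2. After these came ATCG00350 at 10.9 CPM, ATCG01020 at 10.4, ATCG00340 at 10.3, ATCG00680 at 9.46, ATCG00270 at 7.36, ATCG00120 at 7.34, ATCG00180 at 5.59, *cemA* at 4.89, ATCG00170 at 4.52 and ATCG00470 at 4.27. Only 8 members exceeded a mean of 10 CPM and 45 exceeded 1 CPM, while 70 had a count in every library. Neighbours in this order from ATCG00350 to ATCG00680 differ by less than their spread between libraries. Among the named genes *clpP* reached 3.87 CPM and *ndhJ* 0.976 CPM.

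**Figure D2:**
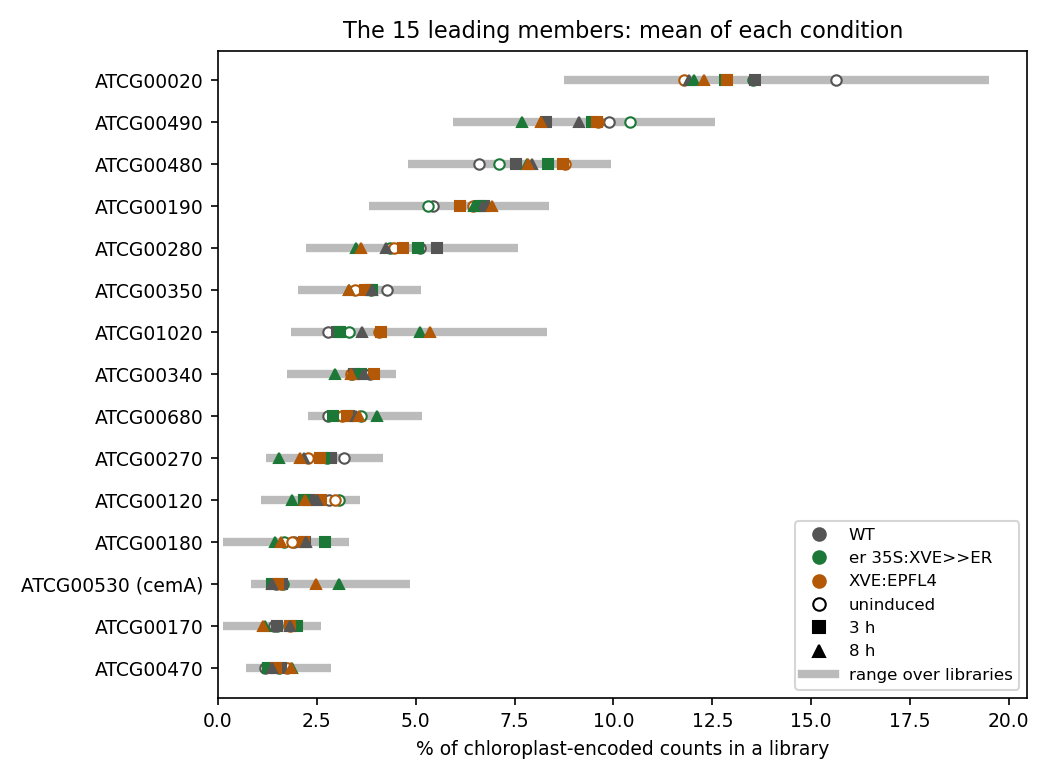
Percent of a library's chloroplast-encoded counts (x axis) held by each of the 15 leading members (y axis); symbols are the means of the 9 conditions, colored by kind of seedling and shaped by time, and grey bars span the lowest to the highest library. ATCG00020 holds 8.76% to 19.5% of the member counts, and ATCG00180 and ATCG00170 reach down to 0.12% in single libraries.

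The top 4 held between 33.99% ± 3.44 (*er 35S:XVE>>ER* at 8 h) and 37.6% ± 2.0 (uninduced WT) of the member counts in each of the 9 conditions, within a narrow band. Over all 100 members, the mean CPM was lower than in uninduced seedlings for 90 in WT at 3 h and 93 at 8 h, for 85 and 80 in *er 35S:XVE>>ER*, and for 73 and 82 in XVE:EPFL4. For 75 members the highest of the 35 libraries was an uninduced one, and for 39 it was WT uninduced replicate 2. The matching counts over all genes were not taken, for the lower means or for the highest library. In RNA from whole seedlings, fewer chloroplast-rich cells and less chloroplast RNA per cell cannot be told apart.

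A test for each gene was fitted across all genes (edgeR quasi-likelihood, two-sided, 1 fit of 35 libraries), and "rose" and "fell" below mean a Benjamini-Hochberg adjusted p below 0.05. Low counts left 21 members, with 0.615% of the member counts, outside the test, and 79 members were tested among 20926 genes. Of the 79, 73 reached the level of the filter (0.483 CPM) in at least 3 induced libraries. The others, ATCG00065, ATCG00110, ATCG00510, ATCG00690, ATCG01040 and ATCG01070, reached it in 3 libraries only with uninduced ones counted. The falls counted below include ATCG01040 (WT, 3 h), ATCG00510 (WT, 8 h), ATCG01070 (*er 35S:XVE>>ER*, 8 h) and ATCG00065 (XVE:EPFL4, 8 h). Fold changes are log2 ratios with their standard errors.

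In WT, 30 members fell and 0 rose by 3 h, where 8.92% of all tested genes fell and 11.9% rose. By 8 h, 38 members fell and 0 rose, against 16.2% and 18.3% of all tested genes. The median log2 fold change of the tested members was -0.80 at 3 h and -0.75 at 8 h, while that of all genes was 0.00 at both times. For 33 of the 100 members at 3 h and 43 at 8 h, every induced library lay below every uninduced one, which held for 10.6% and 15.0% of all genes with 10 or more counts. The counts depended on single libraries: without WT uninduced replicate 2, 11 members were called at 3 h and 21 at 8 h, and without replicate 1 or 2 of the 3 h seedlings 18 and 14 at 3 h. Between 3 h and 8 h, 2 members fell and 0 rose (11.2% of all genes fell), with a median of -0.03 and 0 to 4 calls when single 3 h libraries were left out (0 without replicate 3, 4 without replicate 2 or 4). The count was also 0 in a fit of the 2 conditions alone, 4 by DESeq2, 6 without WT 3 h replicate 4 and *er 35S:XVE>>ER* uninduced replicate 4, and 8 without the 4 libraries of the highest shoot marker sums described below.

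ATCG00020, the member with the most counts, stood at 56.2, 109, 57.6 and 53.7 CPM in uninduced WT replicates 1 to 4, at 30.6, 29.5, 50.9 and 38.0 at 3 h, and at 30.0, 23.5, 27.3 and 35.2 at 8 h. The groups did not overlap, and replicate 2 was the only uninduced library above 60 CPM. Its level fell by 0.89 ± 0.25 on the log2 scale at 3 h (edgeR adjusted p = 0.0120) and by 1.25 ± 0.26 at 8 h (adjusted p = 0.000277).

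ATCG00480 was steadier. Uninduced WT gave 26.7, 26.7, 29.4 and 28.0 CPM, against 21.1, 20.3, 20.3 and 18.6 at 3 h and 19.1, 16.1, 21.8 and 20.3 at 8 h. The uninduced libraries lay within 3 CPM of each other and above all others. ATCG00480 fell by 0.46 ± 0.11 at 3 h (edgeR adjusted p = 0.00348) and 0.52 ± 0.11 at 8 h (adjusted p = 0.000564).

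ATCG00120 gave 9.99, 13.1, 13.9 and 10.99 CPM in uninduced WT, 7.00, 5.42, 6.14 and 5.81 at 3 h and 6.52, 5.58, 5.54 and 6.62 at 8 h. No induced library reached the lowest uninduced one. It fell by 0.98 ± 0.21 at both times (edgeR adjusted p = 0.000943 and 0.000355).

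Of the 15 leading members, 7 fell in WT at 3 h and 10 at 8 h. At both times these included ATCG00490 (-0.96 ± 0.24 and -0.98 ± 0.24), ATCG00350, ATCG00340 and ATCG00270, and at 8 h also ATCG00280 (-1.10 ± 0.25), ATCG00190 (-0.48 ± 0.14) and ATCG00680 (-0.51 ± 0.18). The 5 leading members that did not pass the test at either time were ATCG01020, ATCG00180, *cemA*, ATCG00170 and ATCG00470, at log2 values from -0.89 to -0.17. The steepest falls were in scarce members: ATCG00400 at 3 h (-2.17 ± 0.69, from a mean of 0.443 to 0.0962 CPM) and ATCG01090 at 8 h (-1.77 ± 0.58, from 1.06 to 0.310 CPM).

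Among the named genes, *ndhK* (ATCG00430) stood at 2.21, 2.38, 2.54 and 1.59 CPM in uninduced WT and at 1.09, 0.921, 1.64 and 1.37 at 3 h. The groups overlapped only at replicate 3 of the 3 h seedlings, and the fall of 0.79 ± 0.29 was at the threshold (edgeR adjusted p = 0.0498, and 0.0504 at 8 h). For *ndhJ* (ATCG00420), log2 values were -0.74 ± 0.35 at 3 h and -0.72 ± 0.34 at 8 h (adjusted p = 0.136 and 0.104), which did not pass.

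The ribosomal protein gene *rpl20* (ATCG00660) gave 1.28, 1.41, 0.810 and 1.24 CPM uninduced and 0.367, 0.600, 0.482 and 0.676 at 8 h, without overlap, and fell by 1.15 ± 0.35 (edgeR adjusted p = 0.0102). The protease gene *clpP* (ATCG00670) did not pass, at -0.49 ± 0.34 and -0.43 ± 0.34 (adjusted p = 0.344 and 0.350).

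**Figure D3:**
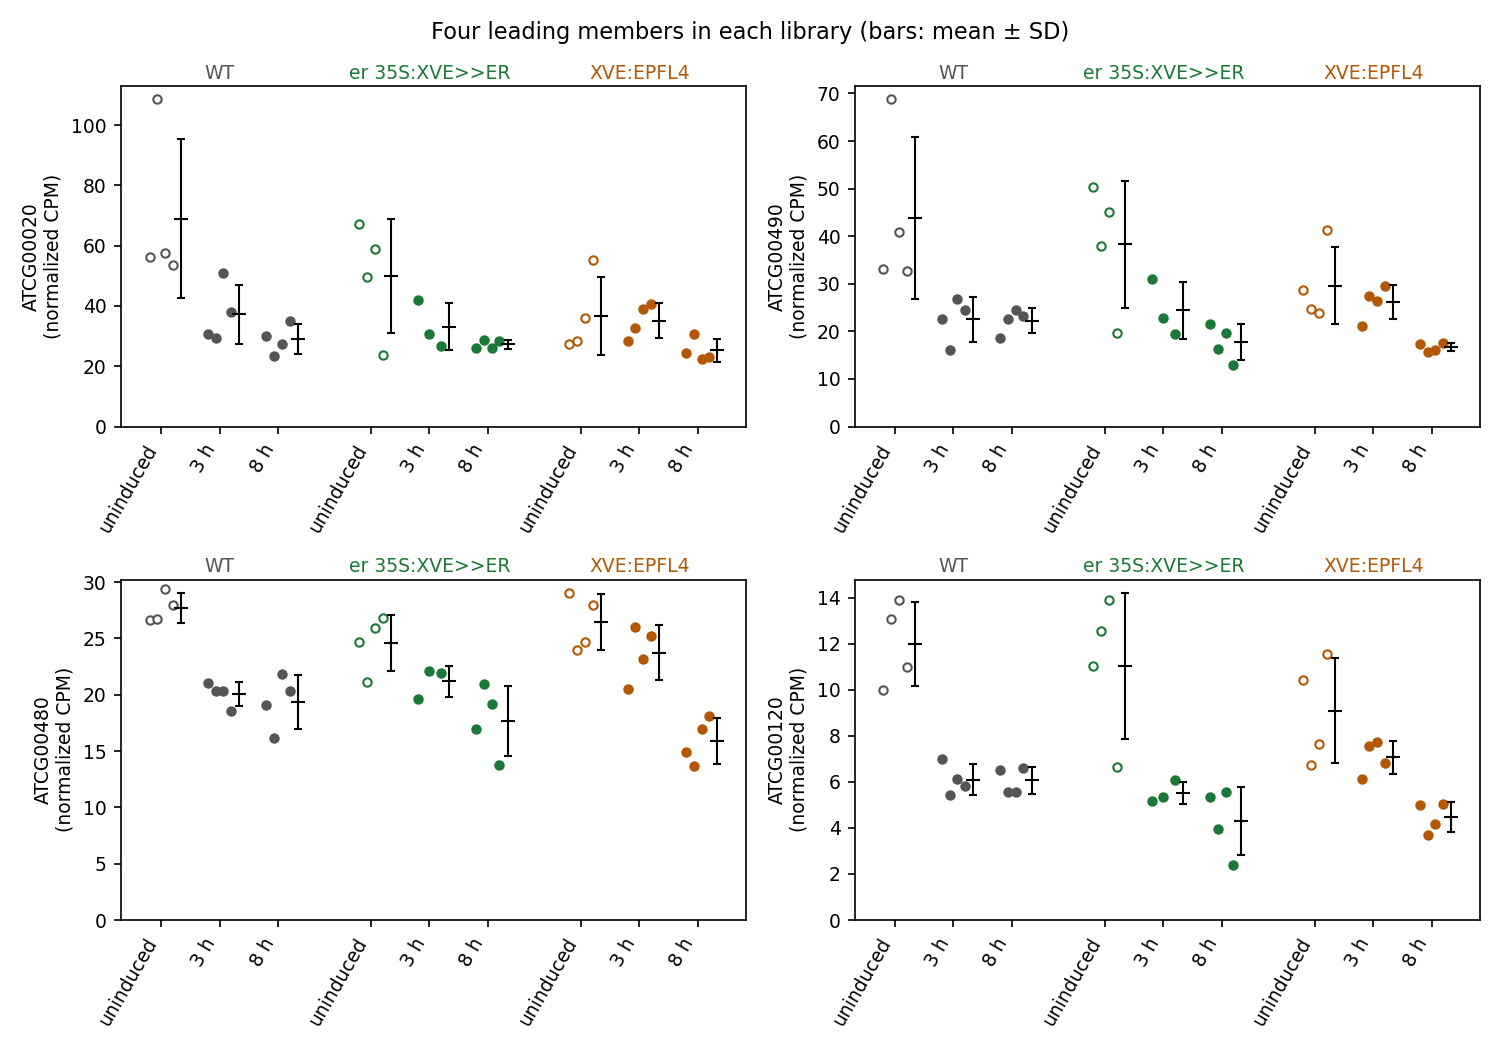
Normalized CPM (linear axis from 0) of ATCG00020, ATCG00490, ATCG00480 and ATCG00120 in each library, by kind of seedling and time; bars give the mean ± SD. In WT the uninduced libraries lie above all induced ones for each of the 4 genes, and in XVE:EPFL4 the 8 h libraries lie below all 3 h ones for ATCG00490, ATCG00480 and ATCG00120.

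In *er 35S:XVE>>ER*, 6 members fell and 0 rose at 3 h, where 6.16% of all genes fell and 7.40% rose, a share near that of all genes. At 8 h, 24 fell and 0 rose, against 15.1% and 16.3% of all genes. The median log2 fold change of the tested members was -0.51 at both times. In 14 and 8 of the 100 members every induced library lay below every uninduced one, against 12.4% and 9.64% of all genes, shares near those of all genes. Without uninduced replicate 4, 12 members were called at 3 h, and without replicate 2 or 4 of the 3 h seedlings 2 and 3. At 8 h, 15 were called without uninduced replicate 1, 14 without replicate 3, and 8 in a fit of the 2 conditions alone. From 3 h to 8 h, 4 members fell (9.54% of all genes fell), the largest being ATCG00300 at -1.62 ± 0.41; 8 were called without uninduced replicate 4 and WT 3 h replicate 4, 2 in a fit of the 2 conditions alone, 1 was called without 3 h replicate 1, 7 without 8 h replicate 3 and 2 without 8 h replicate 4.

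ATCG00120 fell here too, with 11.04, 12.5, 13.9 and 6.64 CPM uninduced, 5.16, 5.32 and 6.07 at 3 h, and 5.36, 3.94, 5.55 and 2.37 at 8 h. Even the low uninduced replicate 4 stayed above all 7 induced libraries. The gene fell by 1.00 ± 0.23 at 3 h (edgeR adjusted p = 0.00313) and 1.35 ± 0.21 at 8 h (adjusted p = 8.84e-06). Of the other leading members, ATCG00680 fell at 3 h (-0.76 ± 0.20), and at 8 h 9 of the 15 fell, with ATCG00270 (-1.53 ± 0.29) and ATCG00490 (-1.11 ± 0.24) among them.

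ATCG00020 was lower at 8 h in *er 35S:XVE>>ER* by 0.87 ± 0.26 (edgeR adjusted p = 0.00972), from 67.2, 49.6, 58.9 and 23.7 CPM to 26.2, 28.7, 25.9 and 28.3. Replicate 4 of the uninduced seedlings lay below all 4 libraries at 8 h. The scarce members ATCG01070 (-3.16 ± 0.62, from a mean of 0.658 to 0.0649 CPM) and ATCG00300 (-2.13 ± 0.38, from 1.51 to 0.337 CPM) had the steepest falls, and ATCG01070 had 0 counts in replicate 4 at 8 h. ATCG01070 entered the test only with uninduced libraries counted, where it was high, so its fall is partly set by the filter.

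In XVE:EPFL4 at 3 h, 1 member fell (ATCG00650, -1.01 ± 0.35) and 1 rose (ATCG00500), where 6.65% of all genes fell and 7.55% rose. The count of 2 became 7 in a fit of the 2 conditions alone and 4 without the 4 libraries of the highest shoot marker sums described below, and 3 without uninduced replicate 4. In the other direction, 0 were called without a filter on low counts or without any 1 of uninduced replicates 1 to 3 and 3 h replicates 2 to 4, and 1 without 3 h replicate 1. At 8 h, 17 fell and 0 rose, against 17.6% and 19.5% of all genes, a share near that of all genes. The tested members had a median of -0.20 at 3 h and -0.54 at 8 h. Without uninduced replicate 4, 11 were called at 8 h. For 7 and 18 of the 100 members every induced library lay below every uninduced one, against 14.4% and 15.5% of all genes. From 3 h to 8 h, 7 fell (11.2% of all genes fell), with ATCG00480, ATCG00490, ATCG00280 and ATCG00120 among them, and 1 to 3 were called without any 1 of 3 h replicates 2 to 4 (2, 3 and 3) or 8 h replicates 2 and 3 (1 and 2). Without *er 35S:XVE>>ER* uninduced replicate 4 and WT 3 h replicate 4 the count was 12, without WT uninduced replicate 2 as well 13, and by DESeq2 10.

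ATCG00480 in XVE:EPFL4 stood at 29.1, 24.0, 24.7 and 28.0 CPM uninduced, at 20.5, 26.1, 23.2 and 25.2 at 3 h and at 14.9, 13.6, 17.0 and 18.1 at 8 h. The first conditions overlapped, and the last lay below both. The change was -0.15 ± 0.11 at 3 h (edgeR adjusted p = 0.405) and -0.73 ± 0.11 at 8 h (adjusted p = 6.51e-06). Of the 15 leading members, 6 fell at 8 h, and ATCG00020 did not pass (-0.54 ± 0.26, adjusted p = 0.0984), with 27.2, 28.3, 35.9 and 55.1 CPM uninduced and 24.4, 30.9, 22.5 and 23.2 at 8 h. The steepest fall was that of ATCG00290 (-2.51 ± 0.55, from a mean of 0.931 to 0.160 CPM).

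**Figure D4:**
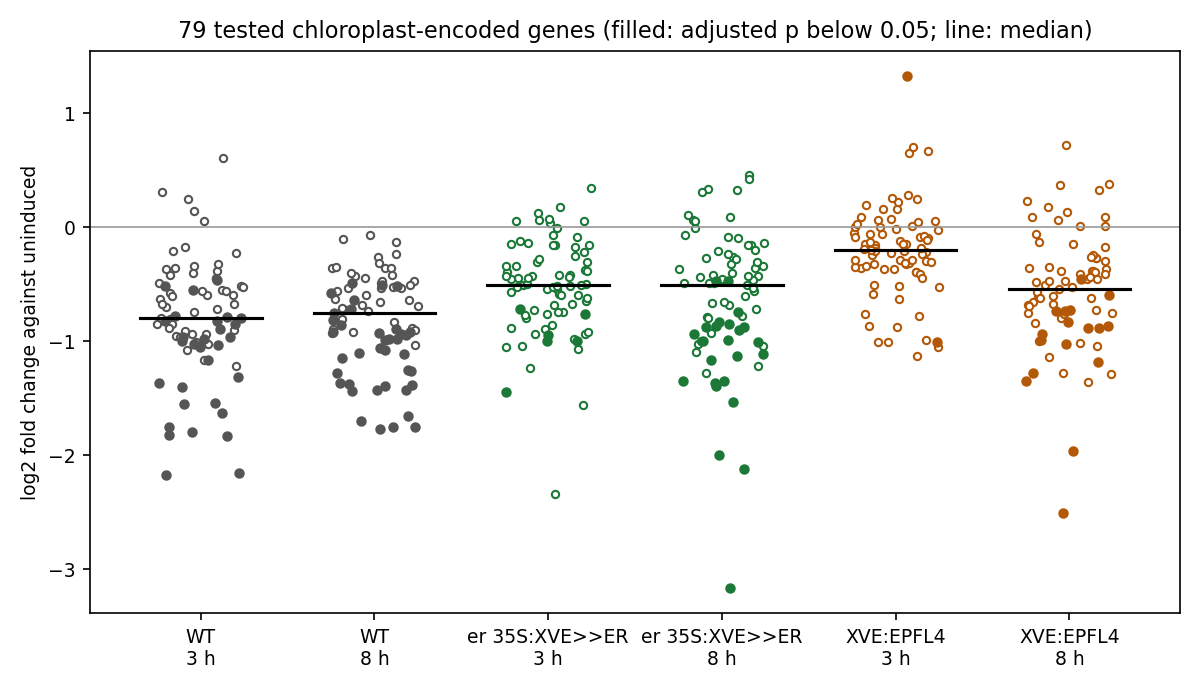
Log2 fold change against uninduced seedlings (y axis) of the 79 tested members in the 6 comparisons (x axis); filled points have an adjusted p below 0.05, and horizontal lines are medians. Medians run from -0.80 in WT at 3 h to -0.20 in XVE:EPFL4 at 3 h, and 1 filled point lies above 0.

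The calls at 8 h were partly the same in the 3 kinds of seedling, which share no library. WT and *er 35S:XVE>>ER* had 21 falling members in common, 55.3% of those in WT and 87.5% of those in *er 35S:XVE>>ER*. WT and XVE:EPFL4 had 15 in common, 39.5% and 88.2% of each list. Over all tested genes the shares were 63.9% and 68.8% for the first pair and 65.2% and 60.2% for the second. *er 35S:XVE>>ER* and XVE:EPFL4 had 11 in common, 45.8% and 64.7% of each list, against 66.9% and 57.4% over all genes. In all 3, 11 members fell, of 43 that fell in any (25.6%, against 31.7% over all genes): ATCG00480, ATCG00490, ATCG00280, ATCG00270 and ATCG00120 of the leading 15, and 6 members of lower level. At 3 h, 3 falling members were common to WT and *er 35S:XVE>>ER* (10% and 50% of each list, against 45.1% and 65.2% over all genes). WT and XVE:EPFL4 had 1 in common (3.33% and 100%, against 37.2% and 49.9% over all genes). *er 35S:XVE>>ER* and XVE:EPFL4 had 0 in common, against 38.9% and 36.0% over all genes. Of the 33 members that fell in any kind at 3 h, 0 fell in all 3, against 14.1% over all genes.

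The kinds of seedling were also compared directly. Between *er 35S:XVE>>ER* and WT, 0 members passed the test uninduced, at 3 h or at 8 h by edgeR or DESeq2, with 4, 5 and 8 members at an unadjusted p below 0.05; of all genes, 0.139%, 0.143% and 0.344% passed. Between XVE:EPFL4 and WT, 1 member passed uninduced (ATCG00500), 0 at 3 h and 0 at 8 h, with 24, 7 and 7 at an unadjusted p below 0.05 and 5, 1 and 0 called by DESeq2; of all genes, 1.89%, 1.46% and 0.344% passed. The uninduced difference had a median of -0.49 over the tested members, and its count was 0 without WT uninduced replicate 2 or 3 or XVE:EPFL4 uninduced replicate 1, 2 or 3, and 5 without XVE:EPFL4 uninduced replicate 4. It was 11 of 79 in a fit of the 2 conditions alone, 7 without *er 35S:XVE>>ER* uninduced replicate 4 and WT 3 h replicate 4, and 9 without the 4 libraries of the highest shoot marker sums. At 3 h the count was 2 without WT replicate 1 or without those 4 libraries, and at 8 h 1 without XVE:EPFL4 replicate 1.

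ATCG00500 was scarce, at 0.930, 1.72, 1.35 and 0.994 CPM in uninduced WT and 0.231, 0.250, 0.291 and 0.613 in uninduced XVE:EPFL4, groups that did not overlap (-1.84 ± 0.44, edgeR adjusted p = 0.0251). In XVE:EPFL4 it then rose to 0.500, 1.37, 0.928 and 0.707 CPM at 3 h (1.33 ± 0.45, adjusted p = 0.0442), while in WT it fell (-1.37 ± 0.43, adjusted p = 0.0216). The highest of these values rests on 39 counts and the lowest on 4.

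The responses themselves were compared by an interaction term. For *er 35S:XVE>>ER* minus WT, 0 members passed at 3 h and 0 at 8 h by either tool (3 and 4 at an unadjusted p below 0.05), where 0.00478% and 0.0191% of all genes passed. For XVE:EPFL4 minus WT, 0 passed at 3 h and 0 at 8 h by edgeR (15 and 4 at an unadjusted p below 0.05) and 2 and 0 by DESeq2, where 0.0765% and 0.478% of all genes passed. ATCG00500 had the smallest adjusted p of the members at 3 h, 0.0753, for a difference in response of 2.69 ± 0.62. The median difference at 3 h was 0.51 for XVE:EPFL4 and 0.28 for *er 35S:XVE>>ER*, both in the direction of a smaller fall than in WT. The medians of all genes were -0.01 and -0.02. Both differences subtract the same WT libraries, among them uninduced replicate 2, the highest library for 39 members, so they are not independent. Single left-out libraries gave 1 call for XVE:EPFL4 at 3 h (WT 3 h replicate 3) and 1 at 8 h (XVE:EPFL4 8 h replicate 3), and a fit of the 4 conditions alone gave 2 at 3 h.

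Members were searched for extreme values in the 4 libraries with the highest sums of the shoot markers, which are described below. ATCG00180 had its 4 lowest values of the series in *er 35S:XVE>>ER* 8 h replicate 4 (0.264 CPM), XVE:EPFL4 8 h replicate 2 (0.679), *er 35S:XVE>>ER* uninduced replicate 4 (1.49) and WT 3 h replicate 4 (2.39), against 3.23 to 10.2 CPM in the other 31. ATCG00170 was lowest in the same 4 libraries, at 0.475, 0.255, 1.22 and 1.37 CPM, against 2.06 to 8.42 in the rest. The reverse held for *clpP*, whose 4 highest values were in these libraries, at 6.49, 6.24, 7.52 and 6.89 CPM in that order, against 1.69 to 5.67 CPM, and for ATCG00080 (3.69 to 4.09 against 0.541 to 3.05 CPM). The 4 libraries belong to 4 conditions, and 2 of the 100 members had their 4 lowest and 2 their 4 highest values in exactly these. How many of all genes do the same was not counted, so whether these numbers are unusual is not known.

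These 4 libraries were chosen by their shoot marker sums, 36205 to 41888 CPM against 19467 to 33496 CPM in the other 31. The members above were then picked for their extremes there, so their match with the sums is not a test. The shoot list holds *RBCS1A*, *LHCB1.3*, *PSAD1*, *SBPASE* and the regulators *GLK1* and *GLK2*, and all 6 genes were detected in every library. Most of the sum came from *RBCS1A* and *LHCB1.3*, with means of 14730 and 10230 CPM in uninduced WT, against 72.0 for *GLK1* and 141 for *GLK2*. The root marker sums of the 4 libraries (10 genes of root hairs and endodermis, all detected in every library) ranged from 15.4 to 109 CPM, against 31.6 to 85.4 CPM in the others. Their chloroplast shares ranged from 0.0203% to 0.0259%. Without these 4 libraries, 34 members were called in WT at 3 h and 43 at 8 h, 14 and 26 in *er 35S:XVE>>ER*, and 4 and 24 in XVE:EPFL4. The calls over all genes in that fit were not counted, so a general gain in calls cannot be told apart. The part of the shoot content of a library in these members' levels was not tested.

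**Figure D5:**
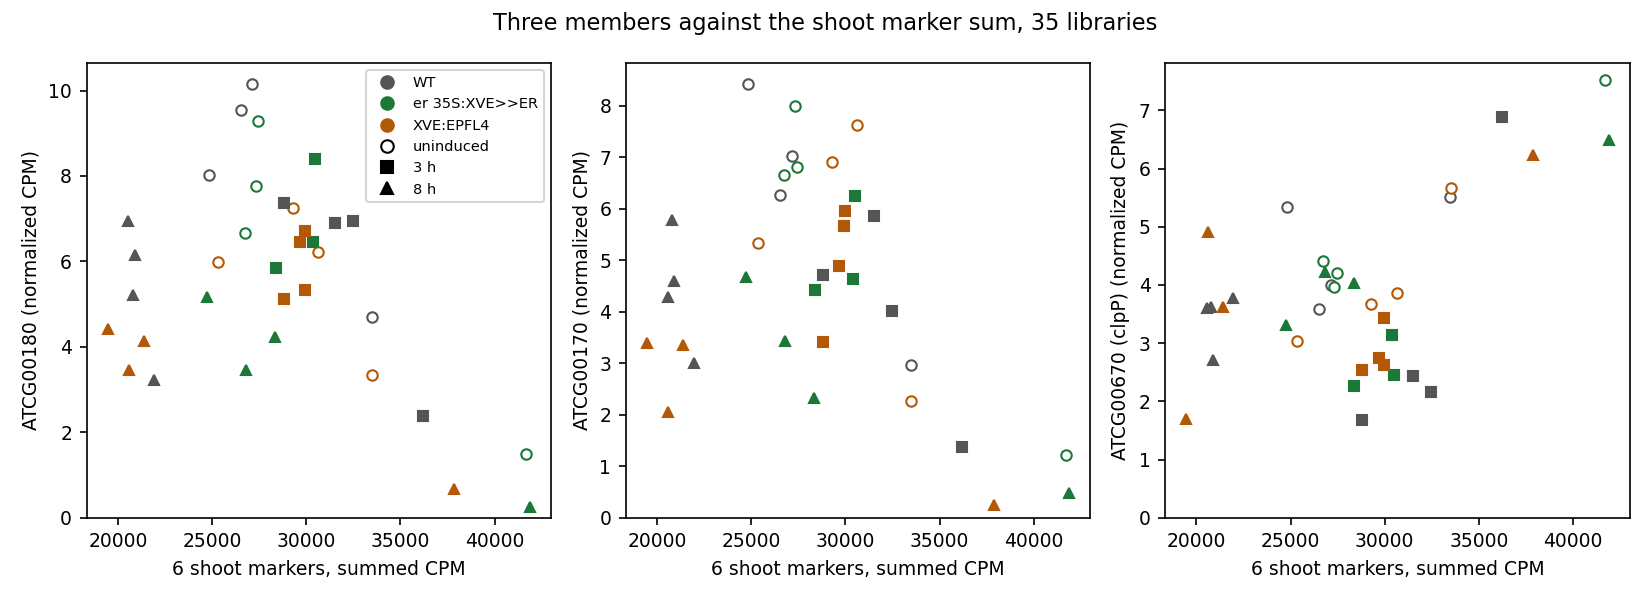
Normalized CPM of ATCG00180, ATCG00170 and ATCG00670 (*clpP*; y axes, linear from 0) against the summed CPM of the 6 shoot markers (x axis) in the 35 libraries, colored by kind of seedling and shaped by time. The 4 libraries to the right, between 36205 and 41888 CPM, are the 4 lowest for ATCG00180 and ATCG00170 and the 4 highest for *clpP*. The members shown were picked for this pattern, so it is not a test.

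The shoot and root markers also shifted with time. At 8 h, the root list fell in part (4 of 10 genes in WT, 4 in *er 35S:XVE>>ER* and 9 in XVE:EPFL4, 0 higher), where 16.2%, 15.1% and 17.6% of all genes fell. *CASP5* fell at both times in all 3 kinds. The summed level of the root list ranged from 56.2 to 85.4 CPM in uninduced seedlings and from 15.4 to 60.3 CPM at 8 h. Of the shoot list, *GLK1* rose and *GLK2* and *SBPASE* fell at 8 h in all 3 kinds, *SBPASE* also at 3 h in XVE:EPFL4, and *GLK1* and *GLK2* rose at 3 h in WT and *er 35S:XVE>>ER*. Shoot sums at 8 h were 20562 to 21943 CPM in WT, below the 24820 to 33488 CPM of the uninduced libraries, and in *er 35S:XVE>>ER* the ranges overlapped. In XVE:EPFL4 they were 20599, 37871, 19467 and 21392 CPM at 8 h against 25340 to 33496 CPM uninduced, so that 3 of 4 libraries lay below all uninduced ones and replicate 2 above them. The part of the markers in the chloroplast counts was not tested.

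The nuclear genes that serve chloroplast transcription changed in both directions. Of the 6 sigma factors, which direct the plastid polymerase to promoters, *SIG5* fell from a mean of 162 ± 28 to 12.1 ± 4.2 CPM in WT at 8 h (SD, n = 4), from 130 ± 73 to 10.04 ± 1.35 in *er 35S:XVE>>ER* and from 107 ± 11 to 10.3 ± 1.9 in XVE:EPFL4. The log2 changes were -3.74 ± 0.39, -3.69 ± 0.39 and -3.38 ± 0.38 (edgeR adjusted p = 5.62e-09, 1.00e-08 and 3.20e-08). *SIG1* fell by 1.94 ± 0.19, 1.73 ± 0.19 and 1.84 ± 0.19, whereas *SIG4* rose by 0.91 ± 0.10, 1.24 ± 0.10 and 1.11 ± 0.10. At 3 h, *SIG5* did not pass in any kind (-0.82 ± 0.35 in WT, adjusted p = 0.0953), *SIG6* fell in WT and XVE:EPFL4, and *SIG4* rose in both inducible lines. *SIG3* rose in *er 35S:XVE>>ER* at 8 h (0.24 ± 0.08).

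Of 11 genes for proteins that assemble with the plastid polymerase, 10 rose in WT at 8 h, 8 in *er 35S:XVE>>ER* and 11 in XVE:EPFL4, with 0 lower, where 18.3%, 16.3% and 19.5% of all genes rose. *TRXZ* in WT (0.41 ± 0.17) and *PTAC2*, *PTAC3* and *MURE* in *er 35S:XVE>>ER* (0.21 to 0.25) did not pass. *PTAC6* rose by 1.37 ± 0.12, 1.49 ± 0.12 and 1.61 ± 0.12, and in WT the superoxide dismutase genes *FSD2* and *FSD3* rose by 1.41 ± 0.20 and 1.11 ± 0.18. At 3 h, by contrast, 3 fell in WT and 4 in *er 35S:XVE>>ER*, *PTAC10*, *FLN1* and *HMR* in both and *PTAC14* in the latter, and 1 rose in XVE:EPFL4 (*PTAC6*, 0.48 ± 0.12). Of all genes, 8.92% fell at 3 h in WT and 6.16% in *er 35S:XVE>>ER*, and 7.55% rose in XVE:EPFL4. Of the 3 phage-type polymerases, *RPOTp*, which acts in plastids, fell in WT at 3 h (-0.56 ± 0.17) and rose at 8 h in WT (0.47 ± 0.16) and XVE:EPFL4 (0.52 ± 0.16), *RPOTmp* rose at 8 h in the same kinds, and the mitochondrial *RPOTm* fell in WT at 3 h.

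Of 6 genes for plastid RNA decay and binding, *RNJ*, encoding the plastid ribonuclease J, rose from a mean of 25.8 ± 2.9 to 128 ± 6.9 CPM in WT at 8 h (2.31 ± 0.17), by 1.92 ± 0.17 in *er 35S:XVE>>ER* and by 2.04 ± 0.17 in XVE:EPFL4. *PNP*, encoding polynucleotide phosphorylase, which degrades and also adds tails to plastid RNA, fell at 3 h in all 3 kinds (-0.60 ± 0.10, -0.43 ± 0.11 and -0.30 ± 0.10) and did not pass at 8 h. The endonuclease gene *CSP41B* fell at 8 h in all 3 (-0.59 ± 0.16, -0.47 ± 0.16 and -0.70 ± 0.16), *RNR1* fell at 3 h in WT and *er 35S:XVE>>ER*, *RNE* fell in WT at 8 h (-0.32 ± 0.11), and *CSP41A* rose in WT at 3 h (0.42 ± 0.13).

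Nuclear genes for subunits of the photosynthetic complexes were counted in the same way, and were not compared with the chloroplast genes by a test. In WT, 5 of 12 photosystem I genes (*PSAE2*, *PSAF*, *PSAH1*, *PSAL* and *PSAO*) and 2 of 9 photosystem II genes (*PSBP1* and *PSBQ2*) rose at 3 h and 0 fell, where 11.9% of all genes rose, and in the other kinds 0 of either list passed. At 8 h, 3 photosystem I and 4 photosystem II genes fell in WT, 1 and 2 in *er 35S:XVE>>ER* and 3 and 3 in XVE:EPFL4, *PSAH2*, *PSBO2* and *PSBY* in each, while *PSAE2* rose in both inducible lines. Of all genes, 16.2%, 15.1% and 17.6% fell at 8 h. Of 3 tested nuclear genes of the NADH dehydrogenase-like complex, *NDHM* and *NDHO* fell in WT at 8 h (-0.76 ± 0.21 and -0.64 ± 0.15) and in XVE:EPFL4 at both times, and 0 passed in *er 35S:XVE>>ER*.

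Of 5 nuclear ATP synthase and cytochrome b6f genes, *ATPD* fell at 8 h in WT and XVE:EPFL4 and *ATPC1* rose in *er 35S:XVE>>ER* at both times. Of the 4 Rubisco small-subunit genes, near-identical copies whose reads may be shared, *RBCS1B* fell at 3 h in WT (-0.78 ± 0.24) and XVE:EPFL4 (-1.04 ± 0.24) and rose at 8 h in *er 35S:XVE>>ER* (0.72 ± 0.24), and *RBCS2B* fell at 3 h in XVE:EPFL4.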

How the data were processed

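The authors deposited raw counts per gene, whole numbers, 1 file per library. The paper's methods and the submitters' processing notes name STAR 2.7.11a and TAIR10; strand and the handling of reads with several matches are not given in the sources used here. The plastid inverted repeat (2 copies of 26264 bases in TAIR10.1) leaves 20 of 131 RefSeq plastid genes with no window of 150 bases that is unique in the genome, so members there, and neighbours on opposite strands, are uncertain. Another 47 genes are shorter than such a window and were not assessed. Counts were scaled by TMM and tested with edgeR 4.0.16 (filterByExpr by condition, minimum count 10, total 15; all genes adjusted together), with DESeq2 1.42.0 as an alternative. The test was checked on simulated data. Shares are member counts over all gene counts. Identifiers were matched to nuclear notes with BLAST 2.17.0.

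Named were the 15 members of the highest mean CPM, the matched genes and the called members with the largest fold changes, at most 2 a direction, in each comparison, of which the text gives a selection; ATCG00080 was named after its values were seen. Classes by gene symbol could not be formed. The choice of this gene set and of the nuclear lists was made with earlier results of these data known, although the rule for members uses no measured change. The paper's methods call the replicates biological repeats, but nothing states that they are separate cultures, so p-values measure the spread between these libraries. All replicate pairs differed by more than sampling noise. No column of the files was left unmapped. The values of 1 matched gene are not reported here.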

Additional observations from a re-analysis of the deposited data

Results flagged for a closer look

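Of 264 groups of 4 libraries tested, 27 had a library set apart from the other 3 by Dixon's criterion, where chance gives about 5 in 100. In uninduced WT, replicate 2 was high for ATCG00020 (108.6 CPM against 53.7 to 57.6), ATCG00350 (28.16), ATCG00340 (25.07) and ATCG01090 (1.939), and replicate 1 for ATCG00470 (6.913). In uninduced *er 35S:XVE>>ER*, replicate 4 was low for ATCG00190 (14.99) and ATCG00300 (0.5531) and high for ATCG01020 (16.04), ATCG00470 (7.301) and *clpP* (7.522). Uninduced XVE:EPFL4 replicate 4 was high for ATCG01070 (0.664 CPM) and ATCG00500 (0.6129).

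At 3 h, WT replicate 3 was high for ATCG00270 (13.98 CPM), and WT replicate 4 was low for ATCG00180 (2.391) and high for *clpP* (6.887). XVE:EPFL4 at 3 h had ATCG00470 low in replicate 1 (2.96), ATCG01040 low in replicate 4 (0.1515), and *ndhK* (1.56) and *rpl20* (0.8435) high in replicate 3. At 8 h, WT was low for ATCG00300 in replicate 4 (0.4056) and for *clpP* in replicate 1 (2.709). *er 35S:XVE>>ER* at 8 h was low for ATCG00280 (4.854) and ATCG00065 (0) in replicate 4 and for *ndhJ* in replicate 2 (0.522). XVE:EPFL4 at 8 h had ATCG00470 high in replicate 2 (6.283), ATCG00920 high in replicate 1 (2.323) and *rpl20* low in replicate 3 (0.217).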

How the results depend on the processing

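No single-gene value reversed: 721 kept their side of the threshold and 159 lost it. Of the counts of called members, 260 stayed within 1.5 times and 72 moved; of the shares, 49 moved by less than 1 SD and 4 by more. Calls rest on few counts for most members, and the causes of the shifts below were not tested. Shares called over all genes were not taken for these alternatives. With DESeq2, 4 members were called in WT from 3 h to 8 h, 5 and 1 between XVE:EPFL4 and WT uninduced and at 3 h, and 2 in the XVE:EPFL4 interaction at 3 h. Without the filter, 0 were called in XVE:EPFL4 at 3 h and 4 from 3 h to 8 h. Fitting only the conditions compared gave 0 in WT from 3 h to 8 h, 8 in *er 35S:XVE>>ER* at 8 h and 2 from 3 h to 8 h, 7 in XVE:EPFL4 at 3 h, 11 and 1 between XVE:EPFL4 and WT uninduced and at 3 h, and 2 in the interaction. Without *er 35S:XVE>>ER* uninduced replicate 4 and WT 3 h replicate 4, the counts were 6 (WT, 3 h to 8 h), 12 and 8 (*er 35S:XVE>>ER* at 3 h and from 3 h to 8 h), 12 (XVE:EPFL4, 3 h to 8 h), 7 and 1 (XVE:EPFL4 against WT, uninduced and 3 h) and 2 (interaction). Of alternatives chosen after seeing the data, leaving out WT uninduced replicate 2 as well gave 14, 25 and 6 in WT (3 h, 8 h, 3 h to 8 h), 11 and 8 in *er 35S:XVE>>ER*, 13 in XVE:EPFL4 from 3 h to 8 h and 1 between XVE:EPFL4 and WT at 3 h. Leaving out the 4 libraries of the highest shoot sums gave 8 in WT from 3 h to 8 h, 14 in *er 35S:XVE>>ER* at 3 h, 4 in XVE:EPFL4 at 3 h, 9 and 2 between XVE:EPFL4 and WT uninduced and at 3 h, and 2 in the interaction. Without ATCG00020 the shares were 0.0222% (*er 35S:XVE>>ER*, 3 h), 0.0240% (XVE:EPFL4, 3 h), 0.0224% (WT, 8 h) and 0.0191% (XVE:EPFL4, 8 h).

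Leaving out 1 library at a time gave 11 to 28, 21 to 39 and 0 to 4 called members in WT (3 h, 8 h, 3 h to 8 h), 2 to 12, 14 to 29 and 1 to 7 in *er 35S:XVE>>ER*, and 0 to 3, 11 to 20 and 1 to 7 in XVE:EPFL4. Between XVE:EPFL4 and WT the ranges were 0 to 5 uninduced, 0 to 2 at 3 h and 0 to 1 at 8 h, and 0 to 1 in each interaction; for *er 35S:XVE>>ER* against WT they were 0 to 0 throughout. With the replicate number as a block, 1 member was called in XVE:EPFL4 at 3 h in place of 2, and 28, 38, 6, 23 and 17 in the other comparisons with uninduced seedlings. The numbers did not pair the libraries: correlations of 136 same-numbered pairs ran from -0.47 to 0.44 with 32 over 0.1, and 10 of 35 libraries correlated best with their own number. An alternative restricted to protein-coding members was not run, since most identifiers carry no gene type here.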
